A study of Mus musculus with 2 samples.

Results

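The genes described here carry glucose through glycolysis or respond to low oxygen. They were chosen by symbol, from a list of 32 drawn up with earlier results of these data known. Of the 32285 gene rows in the count tables, 33 carried one of the 32 symbols, because 2 rows share the symbol Aldoa. All 33 had at least 10 unique molecular identifiers (UMIs, each standing for 1 captured mRNA molecule) over both libraries, a minimum that 19470 of all rows passed. The row ENSMUSG00000030695 is taken as Aldoa, and the other, ENSMUSG00000114515, with 0.186 and 0.198 UMIs per 1000000 (CPM) in the 2 libraries, enters no list. The members are 24 glycolytic genes (17 core enzymes, 4 transporters and 3 regulators) and 8 hypoxia targets.

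Single-cell RNA counts were made from 2 pools of mouse somitic gastruloids, embryo-like structures grown from embryonic stem cells. Both pools came from the E14_triple reporter line in which endogenous Zeb2 carries the HA-FKBP12F36V degron, and both were exposed to 3 µM CHIR99021, an activator of WNT signalling, from 48 h and to 10% Matrigel from 96 h. One pool was untreated (the series text speaks of DMSO as the alternative). The other was given 100 nM dTAG-13, which sends the tagged Zeb2 protein for degradation, at 72 h and at 96 h. Each pool is 1 library of about 32 gastruloids, so no test between groups was possible, and treatment and library cannot be told apart. Intervals, given in parentheses, are 95% intervals for counting error only, and PCR and cell capture add error that they do not hold. Because the degron acts on protein, Zeb2 mRNA (67.9 and 94.6 CPM, untreated and dTAG-13 in that order here and below) does not check the labels.

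Glycolysis turns glucose into pyruvate in a chain of enzymes that begins with hexokinase, and lactate dehydrogenase interconverts pyruvate and lactate. Glucose enters cells through SLC2A (GLUT) transporters, and lactate crosses the membrane through SLC16A (MCT) transporters. In low oxygen the factor HIF1 binds a short sequence near many of these genes and near targets such as Vegfa and Bnip3, and raises their transcription. In the tail bud and presomitic mesoderm of vertebrate embryos, glycolytic activity is known to be graded, with its high end at the posterior tip.

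Promoters were taken from RefSeq (GRCm38.p6), which held 31 of the 32 symbols. Slc2a3 had no entry. The hypoxia-response core, ACGTG or GCGTG on either strand, was present in the 250 bases before the start in 28 of 36 promoters of glycolytic genes (77.8%) and 7 of 9 promoters of hypoxia targets (77.8%). It was present in 38.6% of all 32851 promoters and in 59.5% of those of genes with a mean of at least 10 CPM. The E-box CACGTG, which contains the core, was in 4 of 36 (11.1%) and 1 of 9 (11.1%), against 6.02% of all promoters and 8.81% of those of genes with at least 10 CPM. The ZEB-type box CACCTG was in 3 of 36 (8.33%) and 2 of 9 (22.2%), against 17.2% and 14.1%. A match describes letters and shows no binding. The 4 stretches below are from members with different patterns of level in the results, a glucose transporter, both lactate dehydrogenase subunits and a hypoxia target. They read 5′ to 3′ on the gene's strand, with cores in capitals (CACGT and CACGC are cores on the opposite strand).
Slc2a1: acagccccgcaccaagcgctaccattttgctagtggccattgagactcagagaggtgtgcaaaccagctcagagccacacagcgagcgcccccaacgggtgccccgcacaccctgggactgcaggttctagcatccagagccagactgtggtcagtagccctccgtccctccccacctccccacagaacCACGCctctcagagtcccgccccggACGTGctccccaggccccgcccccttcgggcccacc
Ldha: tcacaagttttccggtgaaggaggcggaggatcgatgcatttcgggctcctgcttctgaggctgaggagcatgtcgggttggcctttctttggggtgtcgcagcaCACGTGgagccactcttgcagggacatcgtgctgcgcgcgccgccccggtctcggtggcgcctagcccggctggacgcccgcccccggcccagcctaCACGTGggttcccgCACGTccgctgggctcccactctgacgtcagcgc
Ldhb: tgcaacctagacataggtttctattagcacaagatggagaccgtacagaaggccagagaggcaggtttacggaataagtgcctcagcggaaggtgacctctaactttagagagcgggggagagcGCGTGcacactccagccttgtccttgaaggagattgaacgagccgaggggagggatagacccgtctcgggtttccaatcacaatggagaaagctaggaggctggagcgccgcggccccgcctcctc
Bnip3: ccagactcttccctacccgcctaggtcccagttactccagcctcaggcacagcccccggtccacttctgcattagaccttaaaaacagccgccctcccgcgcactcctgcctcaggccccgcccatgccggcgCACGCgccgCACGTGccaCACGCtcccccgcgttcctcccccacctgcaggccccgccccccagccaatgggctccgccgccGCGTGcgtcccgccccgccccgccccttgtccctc
The stretch of Slc2a1 (GLUT1) is chr4:119108495-119108744 on the plus strand and holds 2 cores. That of Ldha, the muscle-type lactate dehydrogenase subunit, is chr7:46845554-46845803 on the plus strand, with 5 cores. That of Ldhb, the heart-type subunit, is chr6:142507958-142508207 on the minus strand, with 1 core. That of Bnip3, a receptor for mitophagy, is chr7:138909507-138909756 on the minus strand, with 5 cores. Each CACGTG counts as 1 core on each strand, and the stretch of Ldha has 2 such boxes and that of Bnip3 has 1. Another Ldha promoter, not printed, held 1 core.

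Kept cells numbered 6231 and 6688, with medians of 20073 and 20207 UMIs, and the libraries shared 14 cell barcodes. Cells were placed in 11 gates by 8 genes, a cell being positive with at least 2 UMIs, and each gate is called by its genes. The gates held 72 to 1708 untreated cells and 47 to 1197 dTAG-13 cells. Against markers that did not set the gates, 8 of 8 naive pluripotency markers were highest in Zfp42, 8 of 8 endoderm markers in Sox17 and 5 of 7 non-neural ectoderm markers in Sfn, in both libraries. The other gates met their markers in part. In both libraries 4 of 7 somite markers were highest in Meox1 only, 4 of 8 presomitic markers in T+Tbx6 or Tbx6 only, 3 of 6 epiblast markers in Pim2, 1 of 6 neuromesodermal markers in T+Sox2 and 1 of 7 neural markers in Sox2 only. Of 5 notochord or posterior markers, 2 were highest in T only untreated and 5 with dTAG-13.

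Transporters differed more between gates than enzymes did. The highest over the lowest gate had a median of 9.21 and 8.33 for the 4 transporters and of 1.77 and 1.79 for the 17 core enzymes. It was 3.21 and 2.82 for the 3 regulators, 3.15 and 3.23 for the 8 hypoxia targets and 1.65 and 1.71 for the 7734 genes with a mean of at least 10 CPM. The members were not held to that minimum, and Eno2, Pfkfb4 and Ankrd37 lay below it. Counting error widens such a range most for scarce genes and small gates. The gate with the highest level was the same in both libraries for 22 of the 32 members, and the gate with the lowest for 11.

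Slc2a1 (chr4:119108711-119137983) was high in Sfn at 585 and 623 CPM, in Sox2 only at 538 and 563 CPM, in Pim2 at 492 and 495 CPM and in Sox17 at 463 and 452 CPM. It was low in Tbx6 only at 103 and 97.8 CPM and in Meox1 only at 125 and 120.2 CPM. Slc2a3 (GLUT3, chr6:122727809-122801640), the neuronal-type glucose transporter, had a wider range. It stood at 659 and 732 CPM in Sox17, 565 and 718 CPM in Sfn, 36.8 and 51.0 CPM in Tbx6 only and 43.5 and 32.5 CPM in Meox1 only, a 17.5-fold and 21.9-fold range over the 11 gates. Both transporters were thus high in the ectoderm-marked and endoderm-marked gates and low in the Tbx6 and Meox1 gates. The Zfp42 gate parted them, with Slc2a1 at 175 and 200.3 CPM and Slc2a3 at 300.1 and 330.4 CPM. Of the UMIs of both genes, Slc2a3 held 63.2% (61.8 to 64.5) and 62.3% (61.2 to 63.3) in Zfp42 and 25.8% (24.3 to 27.4) and 21.3% (19.4 to 23.3) in Meox1 only.

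Slc16a1 (MCT1, chr3:104638668-104658462) was at 422 and 429 CPM in Sox17, against 58.3 and 71.6 CPM in all other cells, 7.13-fold and 5.92-fold higher. The next gate, Sfn, reached 76.5 and 100.4 CPM, so the Sox17 cells stood alone. Slc16a3 (MCT4, known for lactate export) was at 137 and 162 CPM in Pim2, 145 and 159.7 CPM in Sox17, 153 and 143 CPM in Tbx6+Meox1, its highest gate untreated, and 70.9 and 75.3 CPM in T+Sox2. Slc16a1 held 74.4% (71.8 to 76.8) and 72.9% (70.9 to 74.8) of the UMIs of the pair in Sox17 and 28.8% (27.1 to 30.6) and 26.1% (24.1 to 28.1) in Meox1 only. Markers of endothelium, which can also express Sox17, summed to 55.3 and 25.4 CPM in that gate over 5 genes, and endoderm markers to 4279 and 3509 CPM over 8 genes.

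**Figure D1:**
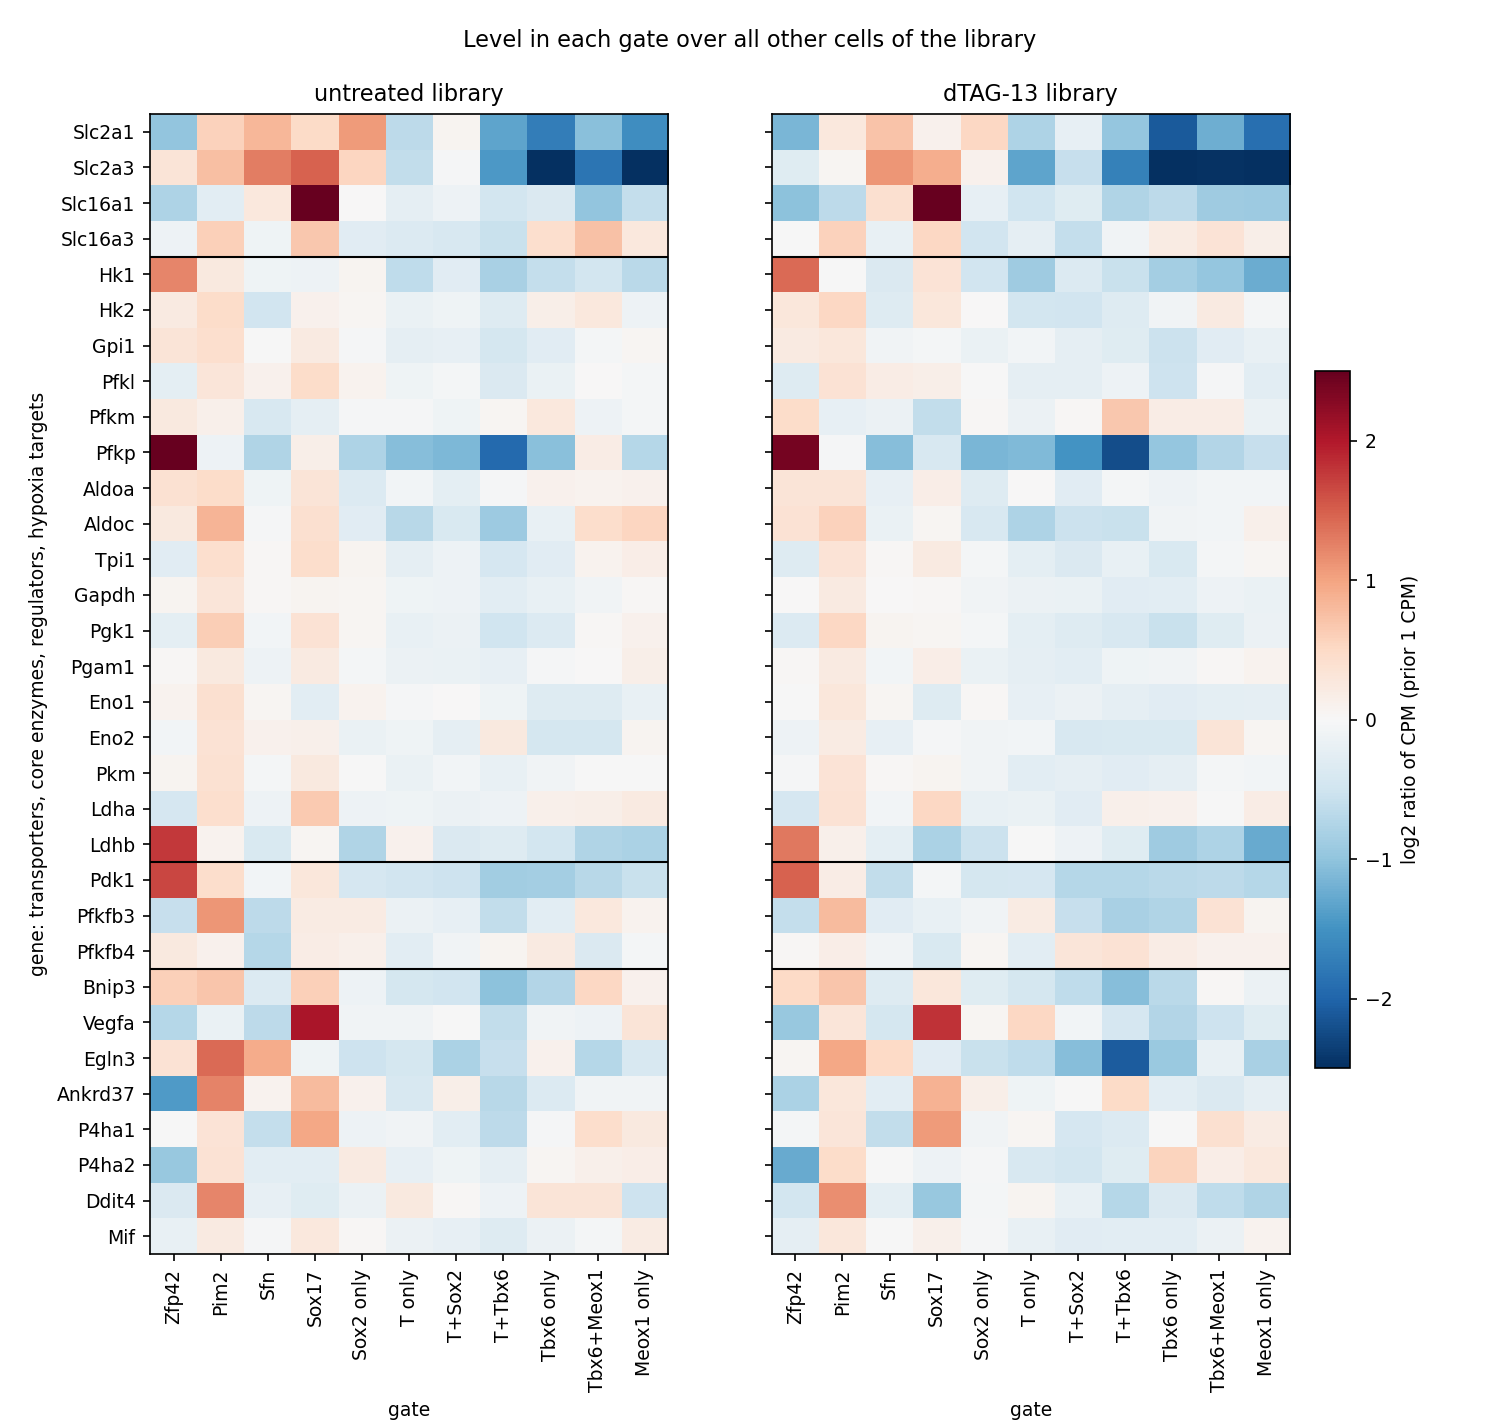
Level of each of the 32 genes in each of 11 gates over all other cells of the same library, as a log2 ratio of CPM (colour, limited at 2.5 either way), for the untreated and the dTAG-13 library. Slc16a1 is high in Sox17, Pfkp, Ldhb, Pdk1 and Hk1 are high in Zfp42, and Slc2a1 and Slc2a3 are low in the Tbx6 and Meox1 gates.

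Zfp42 cells, which carried the naive pluripotency markers, had another mix of isoforms than the other gates. Pfkp (chr13:6579768-6648777), the platelet-type phosphofructokinase, was at 113 and 125 CPM there, against 18.2 and 23.1 CPM in all other cells, 5.95-fold and 5.24-fold higher. Ldhb (chr6:142490249-142507957) was at 529.9 and 673 CPM against 155 and 268 CPM. Pdk1, a kinase that inhibits pyruvate dehydrogenase, was at 82.7 and 83.2 CPM against 25.2 and 29.2 CPM. Hk1, a hexokinase, was at 31.5 and 39.9 CPM against 13 and 14.4 CPM. These 4 were the glycolytic genes at least 1.5-fold higher in Zfp42 in both libraries, 4 of 24, where 9.08% of all genes were. Slc2a1 and Slc16a1 were at least 1.5-fold lower, as were 12.4% of all genes. Of the 8 hypoxia targets 0 were higher and 3 lower, while of 26 other hypoxia targets 5 were higher and 5 lower. The 3 were Vegfa, an angiogenic growth factor, at 6.65 and 6.71 CPM, Ankrd37, an ankyrin-repeat protein, at 0.842 and 2.19 CPM, and P4ha2, a collagen prolyl hydroxylase subunit, at 12.0 and 10.0 CPM. Mitochondrial transcripts summed to 55136 and 54519.8 CPM in Zfp42 and 45857 and 47786 CPM over all cells, and their part in these differences was not tested.

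By share of UMIs, which compares molecules and not lengths, Ldhb held 37.0% (36.2 to 37.8) and 40.5% (39.8 to 41.1) of the Ldha and Ldhb UMIs in Zfp42 and 7.63% (7.31 to 7.96) and 8.35% (7.96 to 8.77) in Meox1 only. Pfkp held 43.6% and 44.8% of the UMIs of 3 phosphofructokinase genes in Zfp42 and 13.2% and 15.4% over all cells. Hk1 held 40.4% and 41.4% of Hk1 and Hk2 in Zfp42 and 26.5% and 26.4% over all cells. P4ha2 held 18.0% and 16.2% of P4ha1 and P4ha2 in Zfp42 and 34.7% and 38.9% in Sfn. The neuronal enolase Eno2 was scarce everywhere, at 0.343 and 0.303 CPM over all cells beside 623 and 571 CPM for Eno1.

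**Figure D2:**
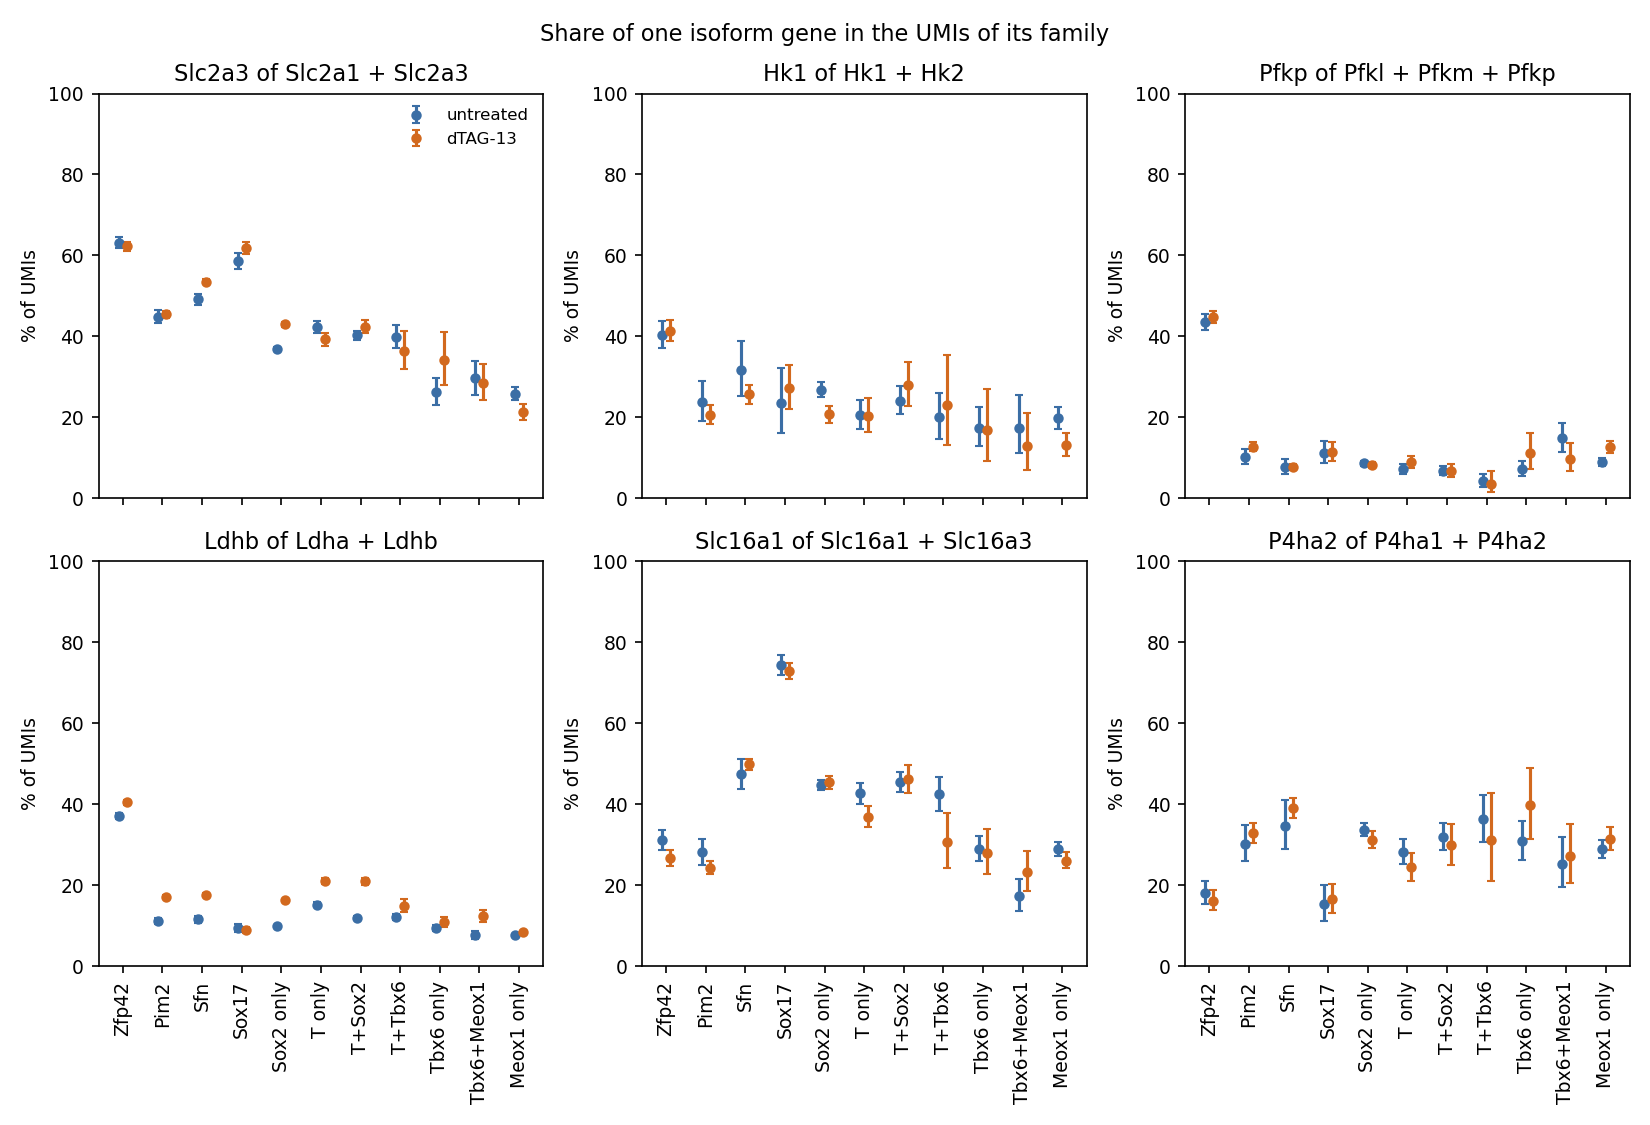
Share of 1 gene in the summed UMIs of its pair or trio, in percent, by gate, for the untreated and the dTAG-13 library, with exact binomial 95% intervals as bars. Zfp42 holds the highest shares of Hk1, Pfkp and Ldhb, and Sox17 the highest share of Slc16a1 (74.4% and 72.9%).

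Core enzymes were highest in Pim2 for 10 of 17 genes in each library, and how many of all genes were highest in Pim2 was not counted. The 17 together took a median of 0.868% of a cell's UMIs there untreated (quartiles 0.678 and 1.12) and 0.916% with dTAG-13 (quartiles 0.730 and 1.20). In Sox17 the medians were 0.848% and 0.845%, and in T+Sox2 they were 0.578% and 0.635%. Pgk1, phosphoglycerate kinase, was at 1128 and 1198 CPM in Pim2 and 676 and 701 CPM in T+Sox2. Pkm, pyruvate kinase, was at 1281 and 1367 CPM and 945 and 957 CPM, and Gpi1, glucose-6-phosphate isomerase, at 273 and 289 CPM and 181 and 209.6 CPM. Ldha was highest in Sox17, at 1835 and 1819 CPM. Against all other cells the 24 glycolytic genes had a median log2 ratio of 0.40 and 0.27 in Pim2, beside -0.04 and -0.02 for all genes. Most stayed under 1.5-fold. Past it in both libraries were 2 of 24, Slc16a3 and Pfkfb3, which makes the activator of phosphofructokinase, where 1.47% of all genes were, and 0 were lower (2.86% of all genes). Pfkfb3 was at 27.1 and 24.4 CPM in Pim2 against 12.0 and 13.6 CPM in all other cells.

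Pim2 or Sox17 held the highest level of all 8 hypoxia targets untreated (5 and 3) and of 7 with dTAG-13 (4 and 3). The same count was not made for all genes. Ankrd37 was highest on 41 UMIs in Pim2 untreated and on 30 UMIs in Sox17 with dTAG-13. In Pim2 3 of 8 were at least 1.5-fold higher in both libraries (1.47% of all genes) and 0 lower (2.86%). Egln3, an oxygen-dependent prolyl hydroxylase (chr12:54178981-54203860), was at 27.3 and 30.4 CPM against 9.59 and 15.1 CPM in all other cells. Ddit4, an inhibitor of mTORC1, was at 189 and 194 CPM against 80.1 and 86.4 CPM, and Bnip3 (chr7:138890836-138909519) at 86.4 and 109 CPM against 52.9 and 67.2 CPM. Of the same 26 other hypoxia targets, 8 were at least 1.5-fold higher in Pim2 in both libraries (1.47%) and 0 lower (2.86%). In Sox17 3 of 8 hypoxia targets were higher and 0 lower, as were Slc2a3 and Slc16a1 of 24 glycolytic genes, where 5.33% of all genes were higher and 6.15% lower. Vegfa (chr17:46016993-46032369) was at 46.9 and 46.0 CPM in Sox17 against 10.6 and 12.4 CPM, and P4ha1, the partner of P4ha2, at 107 and 110.3 CPM against 54.2 and 52.4 CPM. Ankrd37 was at 7.03 and 8.57 CPM against 3.63 and 4.22 CPM. Mif, a cytokine and the most abundant member by UMIs, varied little, from 1617 to 2393 CPM over the gates untreated and from 1862 to 2687 CPM with dTAG-13.

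Elsewhere most members that passed 1.5-fold in both libraries were low. In Sfn Slc2a1 and Slc2a3 were higher (2.24% of all genes) and Pfkp and P4ha1 lower (2.97%). Sox2 only had Pfkp lower (3.87% of all genes), and T+Sox2 had Pfkp and Egln3 lower (2.77%). T only had Hk1, Pfkp, Slc2a1, Slc2a3 and Aldoc, an aldolase, lower (2.45%). In T+Tbx6 the lower members were Pfkp, Slc2a1, Slc2a3, Pdk1, Pfkfb3 and Bnip3 (4.61%), and in Tbx6 only Hk1, Pfkp, Slc2a1, Slc2a3, Pdk1 and Bnip3 (7.49%). Tbx6+Meox1 had Ldhb, Slc2a1, Slc2a3, Slc16a1 and Pdk1 lower (6.52%), and Meox1 only had Hk1, Ldhb, Slc2a1, Slc2a3 and Slc16a1 (7.65%). In these last 6 gates and in Sox2 only, 0 members were higher. The share of all genes that were higher ran from 0.806% in Sox2 only to 2.5% in Meox1 only.

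From posterior progenitors towards somites, the glucose transporters were lower while most enzymes were not. In the order T+Sox2, T+Tbx6, Tbx6 only, Tbx6+Meox1 and Meox1 only, Slc2a1 was at 352, 137, 103, 164 and 125 CPM untreated and at 367, 214, 97.8, 181 and 120.2 CPM with dTAG-13. Slc2a3 was at 238, 91.1, 36.8, 69.1 and 43.5 CPM untreated and at 270.3, 123, 51.0, 72.2 and 32.5 CPM with dTAG-13. Both were highest in T+Sox2 and higher at Tbx6+Meox1 than at Tbx6 only, so neither ran in 1 direction over all steps. T+Sox2 over Meox1 only, a pair of gates added after the data were seen, gave log2 ratios of 2.42 (2.33 to 2.57) and 3.02 (2.89 to 3.22) for Slc2a3 and 1.49 (1.42 to 1.57) and 1.60 (1.51 to 1.71) for Slc2a1. These were 2 of 23 glycolytic genes at least 1.5-fold higher untreated (10.7% of all genes). With dTAG-13 they were 2 of 4 (14.7%), beside Ldhb at 1.08 (0.99 to 1.19) and Hk1 at 0.84 (0.46 to 1.40). Aldoc and Slc16a3 were lower in both libraries (6.61% and 7.51% of all genes), and Pfkp and Pfkfb3 with dTAG-13 as well. Of the 8 hypoxia targets 0 passed in either direction untreated, and P4ha1 and P4ha2 were lower with dTAG-13. Over the alternative settings both transporters kept their calls in both libraries, while Hk1 came to 0.06, Slc16a3 to -0.54 and -0.42 and Aldoc to -0.43 and -0.0044 at the nearest to 0. With dTAG-13 Pfkp came to -0.42, Pfkfb3 to -0.093, P4ha2 to -0.48 and P4ha1 to -0.18, so these calls were lost too.

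Single cells spread widely. Slc2a1 and Slc2a3 together took a median of 5.29 UMIs per 10000 in untreated T+Sox2 cells (quartiles 3.22 and 7.20) and 0.721 in Meox1 only (quartiles 0 and 1.66). With dTAG-13 the medians were 5.00 (quartiles 2.96 and 8.17) and 0.910 (quartiles 0.420 and 1.85). The middle range of T+Sox2 cells lay above that of Meox1 only cells in both libraries.

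**Figure D3:**
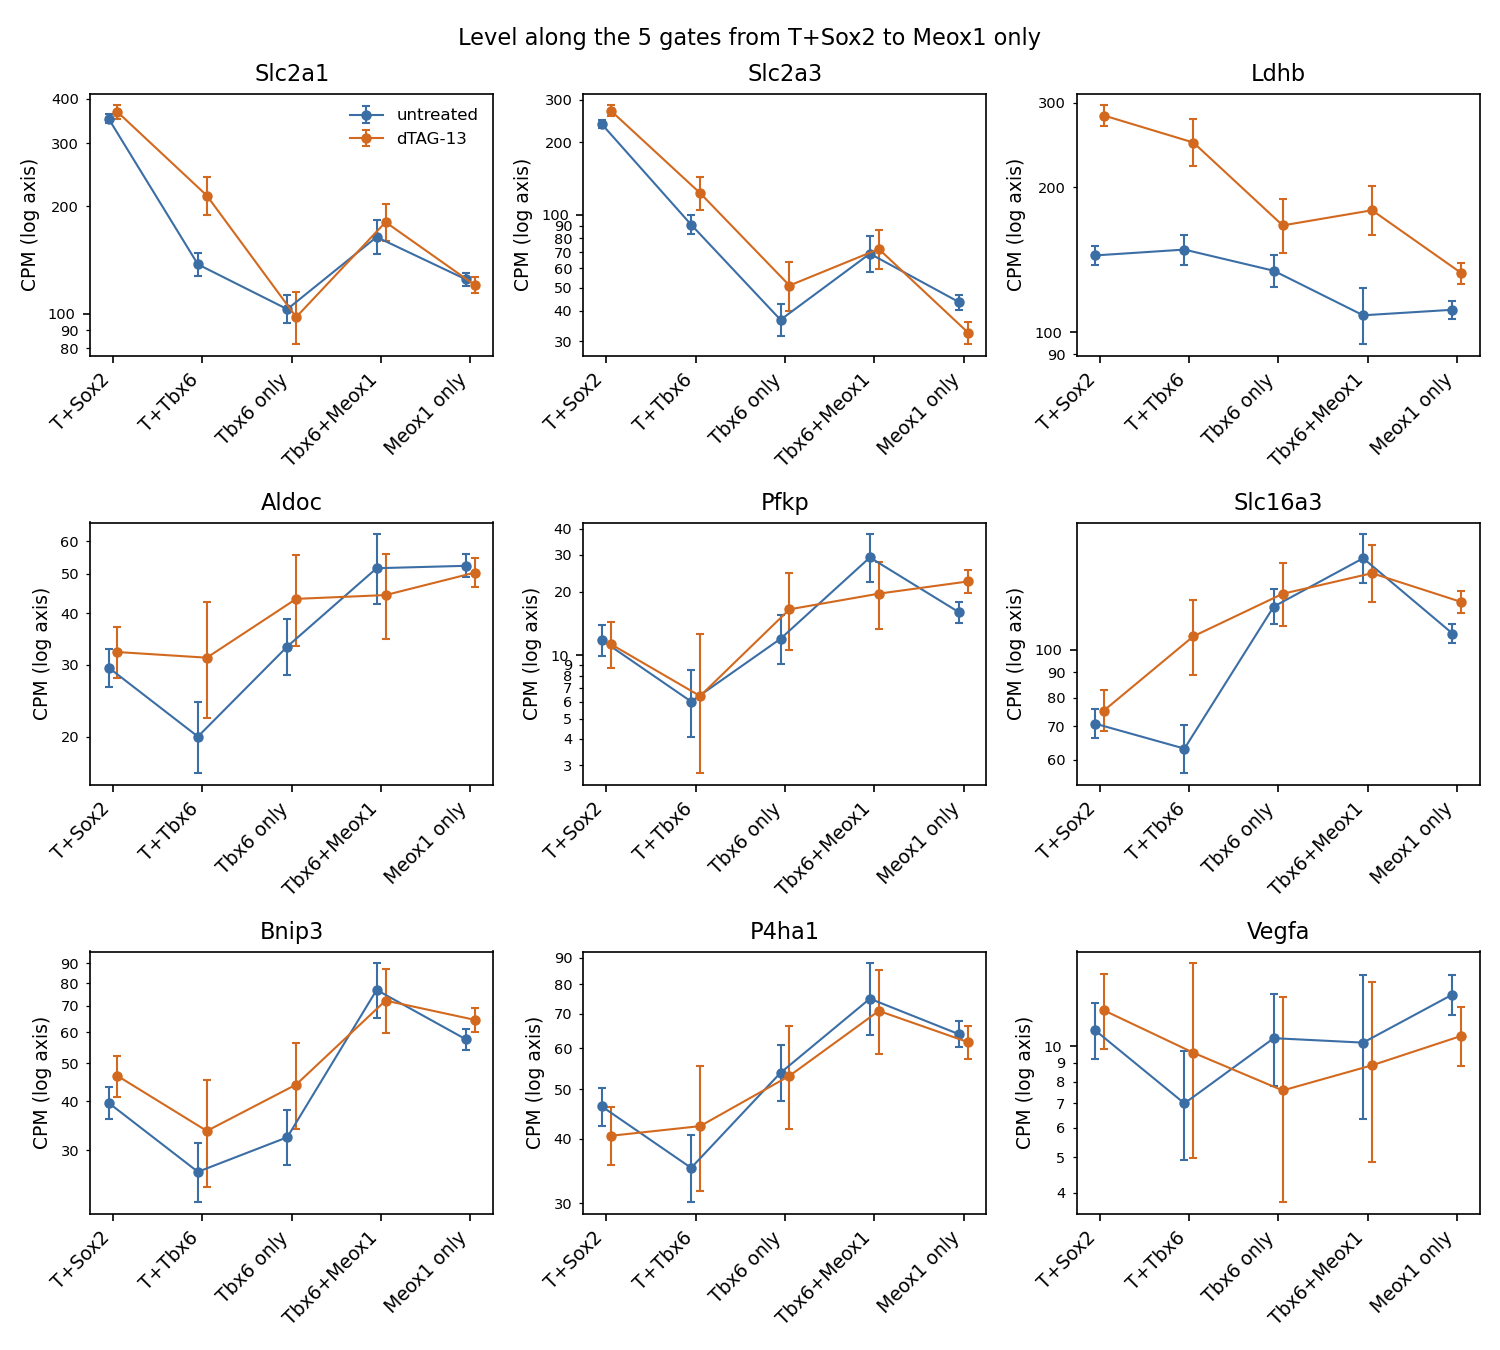
CPM (log axis) of 9 members in the 5 gates from T+Sox2 to Meox1 only, for the untreated and the dTAG-13 library, with exact Poisson 95% intervals as bars. Slc2a1 and Slc2a3 are highest in T+Sox2, while Aldoc, Pfkp, Slc16a3, Bnip3 and P4ha1 are lower in T+Tbx6 than in Meox1 only.

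Between T+Tbx6 and Meox1 only, most enzymes were lower on the posterior side in the untreated library. T+Tbx6 held the lowest level of 10 of the 17 core enzymes among all 11 gates untreated, but of 3 of 17 with dTAG-13. How many of all genes were lowest in T+Tbx6 was not counted. Aldoc was at 20 CPM in T+Tbx6 and 52.3 CPM in Meox1 only, a log2 ratio of -1.34 (-1.69 to -1.09). Pfkp was at 6.02 and 16.0 CPM, Slc16a3 at 63.1 and 108 CPM and Pfkfb3 at 7.96 and 13.2 CPM. These 4 of 24 were at least 1.5-fold lower, where 8.11% of all genes were (3.48% of those with a mean of at least 10 CPM). Slc2a3 alone was higher, at 1.05 (0.90 to 1.23), where 8.59% of all genes were (5.49% of those with at least 10 CPM). Within 1.5-fold, Pgk1 was at -0.57 (-0.63 to -0.51) and Tpi1, triosephosphate isomerase, at -0.54 (-0.61 to -0.47). The list's median was -0.25, with 8 genes above 0 and 16 below.

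The hypoxia targets were lower there as well. Of 8, 4 were at least 1.5-fold lower in T+Tbx6 (8.11% of all genes) and 0 higher (8.59%), with a median of -0.54. Bnip3 was at 26.4 CPM in T+Tbx6 and 57.5 CPM in Meox1 only, -1.09 (-1.39 to -0.86) on the log2 scale. Vegfa was at 6.99 and 13.8 CPM, -0.89 (-1.53 to -0.47), and P4ha1 at 35.1 and 63.9 CPM, -0.84 (-1.10 to -0.63). Ankrd37, at 1.94 and 3.42 CPM, had an interval that reached above 0. Ddit4 went the other way, at 76.3 and 60.0 CPM. Of 23 other hypoxia targets measured, 5 were lower (8.11% of all genes) and 0 higher (8.59%). Genes induced by cell dissociation were lower in T+Tbx6 too. Of 9 measured, 7 were at least 1.5-fold lower (8.11% of all genes). Jun was at 3.5 and 26.9 CPM, and all 12 on the list summed to 96.1 and 190 CPM. Their part in the result was not tested. Over the alternative settings Pfkfb3 came to -0.44, Vegfa to -0.40, P4ha1 to -0.58 and Ankrd37 to -0.25, short of 1.5-fold, while Bnip3, Aldoc, Pfkp, Slc16a3 and Slc2a3 kept their calls.

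With dTAG-13 the T+Tbx6 gate held 47 cells, and the calls there are less certain. Bnip3 was at 33.6 CPM in T+Tbx6 and 64.5 CPM in Meox1 only, -0.92 (-1.43 to -0.49), and Pfkp at 6.40 and 22.5 CPM, -1.67 (-3.04 to -0.81). Of 23 glycolytic genes 5 were at least 1.5-fold higher (11.1% of all genes) and 3 lower (13.9%). Higher were Ldhb, Slc2a1, Slc2a3, Hk1 and Pfkm, the muscle-type phosphofructokinase, and lower were Pfkp, Aldoc and Pfkfb3. The interval of Hk1, 0.63 (-0.24 to 1.53), spans 0. Of the 8 hypoxia targets Bnip3 and Egln3 were lower, Egln3 on 4 UMIs in T+Tbx6, and Ankrd37 higher, at 0.69 (-0.47 to 1.95). Over the alternative settings Egln3 turned to 1.06 and 1.41, Hk1 to -0.71, Pfkm to -0.58, Slc2a1 to -0.11, Slc2a3 to -1.15 and Ankrd37 to -0.068, and Aldoc came to -0.097. Bnip3, Pfkp, Pfkfb3 and Ldhb kept their calls. Of these, Pfkp rested on 8 UMIs and Pfkfb3 on 10 in T+Tbx6, and they ran as low as -4.53 and -4.08 over the settings. Steady order over all 5 gates was rare. Untreated, Ldha was higher at every step (1.3% of all genes) and 0 members lower at every step (2%). With dTAG-13 Mif and Pgam1, phosphoglycerate mutase, were higher at every step (0.92%) and Hk1 lower (1.71%).

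Over whole libraries, most glycolytic genes were slightly higher with dTAG-13. Of 24, 21 had a log2 ratio above 0 and 3 below, with a median of 0.23 beside 0.02 for all genes. At least 1.5-fold higher were 3 of 24, where 2.32% of all genes were (2.03% of those with a mean of at least 10 CPM), and 0 were lower (0.832% and 0.983%). Ldhb was at 183 and 307 CPM, 0.74 (0.72 to 0.76) on the log2 scale. Slc2a3 was at 243 and 399 CPM, 0.71 (0.69 to 0.73). Gapdh, glyceraldehyde-3-phosphate dehydrogenase (chr6:125161715-125166467), was at 610.0 and 929 CPM, 0.61 (0.59 to 0.62), and fell short of 1.5-fold, at 0.56, with the scaling factors of DESeq2 or edgeR. All 4 transporters were above 0, with Slc2a1 and Slc16a1 at 0.32 and Slc16a3 at 0.29. Hk2, the inducible hexokinase, was at 0.23, Aldoa at 0.27, Pkm at 0.16 and Ldha at 0.13. Eno1 (chr4:150236721-150248879) was lower, at 623 and 571 CPM, -0.13 (-0.14 to -0.11).

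The hypoxia targets had a median of 0.20, with 7 of 8 above 0. Egln3 alone passed 1.5-fold, where 2.32% of all genes were higher and 0.832% lower. It was at 10.1 and 16.6 CPM, 0.66 (0.61 to 0.80), and with a prior of 5 CPM in place of 1 it was at 0.51. Bnip3 was at 53.9 and 71.1 CPM, 0.39 (0.36 to 0.44), Mif at 2006 and 2249 CPM, 0.17 (0.16 to 0.17), and P4ha1 at 55.0 and 53.7 CPM, -0.03 (-0.08 to 0.01). Of 8 HIF regulators 0 passed, among them Hif1a, the oxygen-regulated subunit, at 105 and 111 CPM. Of 26 other hypoxia targets 1 was higher and 0 lower. Of 26 other glycolysis genes measured, 2 were higher and 0 lower, with Pgm1, phosphoglucomutase, at 25.1 and 39.3 CPM. Of 25 genes of pyruvate entry and the TCA cycle 0 passed, with a median of -0.02.

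The gates made up different shares of the libraries. Sfn was 3.05% and 16.0% of cells, Pim2 2.68% and 9.11%, Meox1 only 12.5% and 7.52%, and T+Tbx6 3.21% and 0.703%. Each whole-library ratio was divided into a part from the gates' shares and a part from levels within gates. These were 0.38 and 0.33 for Slc2a3 and 0.37 and 0.29 for Egln3, which had high levels in the gates that were larger with dTAG-13. They were 0.05 and 0.55 for Gapdh and 0.15 and 0.59 for Ldhb, nearly all of it within gates for Gapdh. For Hk1, Pfkp and Pdk1 the share part was the larger, at 0.16 and 0.06, 0.24 and 0.13 and 0.19 and 0.02. The part within gates was larger in absolute size for 16 of the 24 glycolytic genes and 6 of the 8 hypoxia targets. Ungated cells, positive for no gate gene (19.0% and 22.1% of cells), entered this division as a group. So did mixed cells, with other combinations of gate genes (3.05% and 4.74%). The part within gates thus includes differences inside these groups, such as Slc2a3 at 234 and 367 CPM in ungated cells.

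**Figure D4:**
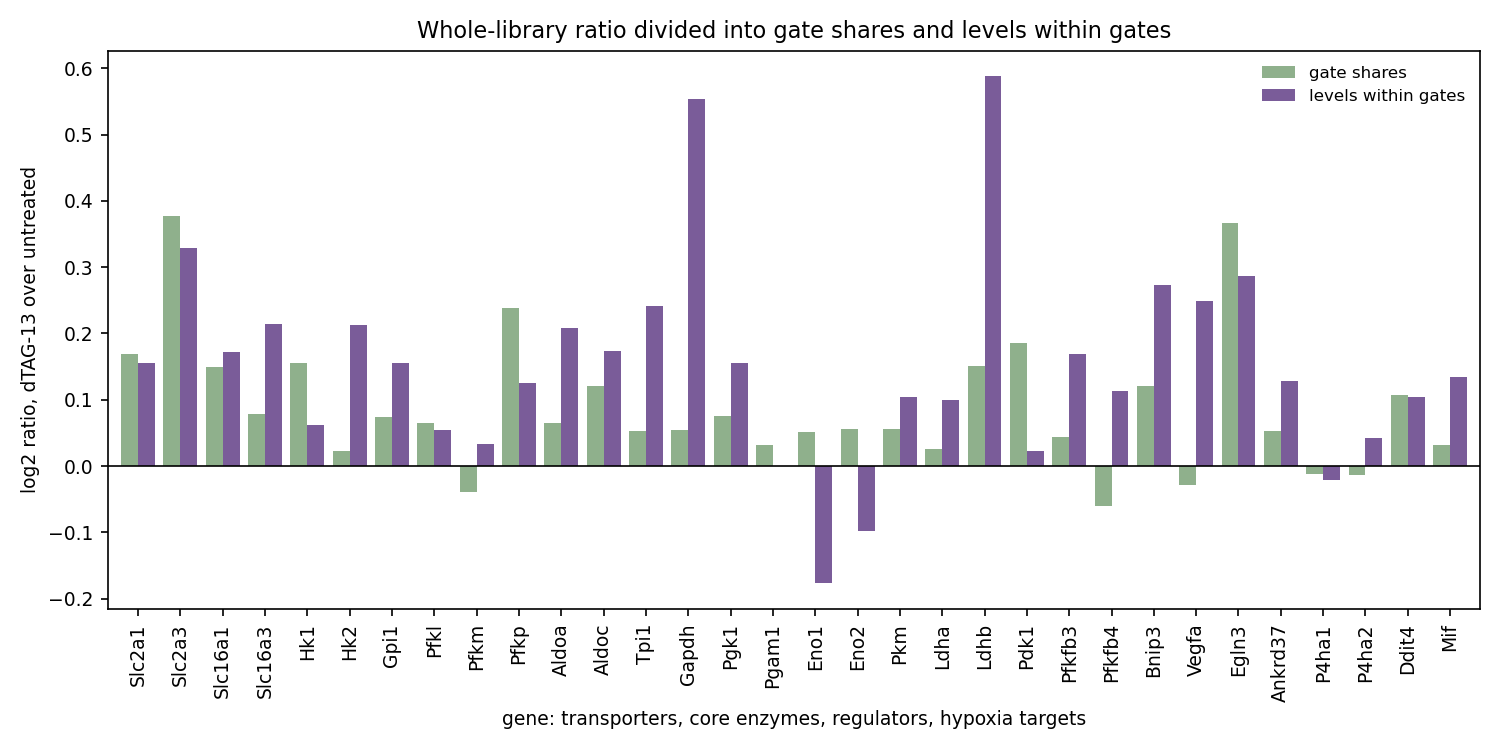
The log2 ratio of dTAG-13 over untreated for each of the 32 genes, divided into a part from the gates' shares of UMIs and a part from levels within gates, as bars. The parts are 0.05 and 0.55 for Gapdh, 0.15 and 0.59 for Ldhb and 0.38 and 0.33 for Slc2a3. Ungated cells and mixed cells are each counted as a group beside the gates.

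Within the 9 gates that held at least 50 cells in both libraries, Gapdh was higher with dTAG-13 in all 9, by 0.43 (Meox1 only) to 0.59 (Sfn) on the log2 scale, and 9 of 9 intervals lay above 0. Eno1 was below 0 in all 9, from -0.29 to -0.11, with 8 of 9 intervals below 0. Aldoa, Tpi1, Slc16a3, Bnip3 and Mif were above 0 in all 9 too, Bnip3 from 0.08 to 0.45 and Slc16a3 from 0.08 to 0.40. A difference shared by all gates of 1 library cannot be told apart from a difference between the libraries. Eno1 has a near-identical copy, Eno1b, at 22.4 and 23.3 CPM over all cells, and genes such as Gapdh, Ldha, Pgk1 and Pgam1 have processed pseudogenes, so reads shared with copies make these levels less certain.

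Ldhb had the largest differences within gates. It was higher with dTAG-13 by 0.96 (0.87 to 1.06) in T+Sox2, 0.91 (0.80 to 1.03) in Sfn, 0.87 (0.82 to 0.93) in Sox2 only, 0.76 (0.66 to 0.87) in Pim2 and 0.64 (0.56 to 0.72) in T only. Its level in T+Sox2 was 144 and 282 CPM and in Sox2 only 122 and 223 CPM. It was at 0.34 in Zfp42, 0.31 in Tbx6 only and 0.25 in Meox1 only, and in Sox17 at -0.09 (-0.28 to 0.09). Its share of Ldha and Ldhb UMIs in T+Sox2 was 11.9% (11.4 to 12.4) and 20.9% (20 to 21.8). The gates were not alike in other markers. Naive pluripotency markers, from the cells where Ldhb was highest, summed to 38.3 and 78.8 CPM in T+Sox2 and 47.0 and 72.2 CPM in Sox2 only. Non-neural ectoderm markers summed to 107 and 324 CPM and 64.5 and 262 CPM in the same gates. Their part in the Ldhb difference was not tested.

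Of 210 pairs of a glycolytic gene and a gate, 9 were at least 1.5-fold higher with dTAG-13 and 0 lower, and 5 of the 9 were Ldhb. In Sfn 4 of 23 were higher, Gapdh, Ldhb, Pfkfb3 and Pfkfb4, where 5.08% of all genes were higher and 3.2% lower. Pfkfb3 was at 7.74 and 12.3 CPM there and Pfkfb4, its relative, at 1.33 and 2.68 CPM, with log2 ratios of 0.60 (0.16 to 1.21) and 0.66 (-0.18 to 2.51). Both went below 0 with a gate threshold of 1 UMI. In Sox17 1 of 23 was higher, Hk1 at 13.1 and 21.4 CPM (6.03% of all genes higher and 5.6% lower). Among the glycolytic genes Ldhb was the 1 member called in Pim2, Sox2 only, T only and T+Sox2. Of all genes, 4.86% were higher and 3.87% lower in Pim2, 3.57% and 1% in Sox2 only, 7.56% and 1.95% in T only, and 7.39% and 2.74% in T+Sox2. No glycolytic gene was called in Zfp42 (1.62% of all genes higher and 1.4% lower), Tbx6 only (6.22% and 7.82%) or Meox1 only (1.85% and 1.58%). Over the alternative settings Ldhb came to 0.45 in Pim2 and 0.55 in T only, Gapdh to 0.52 in Sfn and Hk1 to 0.13 in Sox17, while Ldhb kept its calls in Sfn, Sox2 only and T+Sox2.

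Of 72 pairs of a hypoxia target and a gate, 3 were higher and 1 lower, where 1.62% to 7.56% of all genes were higher and 1% to 7.82% lower in single gates. Vegfa was higher in T only, at 10.5 and 18.8 CPM, 0.79 (0.49 to 1.20), and in Pim2, at 9.81 and 16.0 CPM, 0.66 (0.23 to 1.22). Ankrd37 was higher in Zfp42, at 0.842 and 2.19 CPM, and lower in Pim2, at 9.58 and 5.32 CPM. Over the alternative settings Vegfa in Pim2 came to 0.40 and Ankrd37 to 0.30 in Zfp42 and 0.086 in Pim2, so that only Vegfa in T only kept its call. In T only, dissociation genes summed to 162 and 253 CPM, notochord markers to 33.1 and 65.1 CPM and mitochondrial transcripts to 47922 and 54089 CPM, and their part in the Vegfa difference was not tested.

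Slc2a3 was higher with dTAG-13 in 8 of the 9 gates, with 6 intervals above 0, and lower in 1. Its highest ratio was 0.46, in Tbx6 only, at 36.8 and 51.0 CPM. It was higher with dTAG-13 in Sox2 only, at 314 and 425 CPM, 0.43 (0.40 to 0.47), and in Sfn, at 565 and 718 CPM, 0.34 (0.28 to 0.40). It was lower in Meox1 only, at 43.5 and 32.5 CPM, -0.41 (-0.60 to -0.24). The difference between these gates was not tested. Slc2a1 ranged from -0.07 to 0.19 over the 9 gates.

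**Figure D5:**
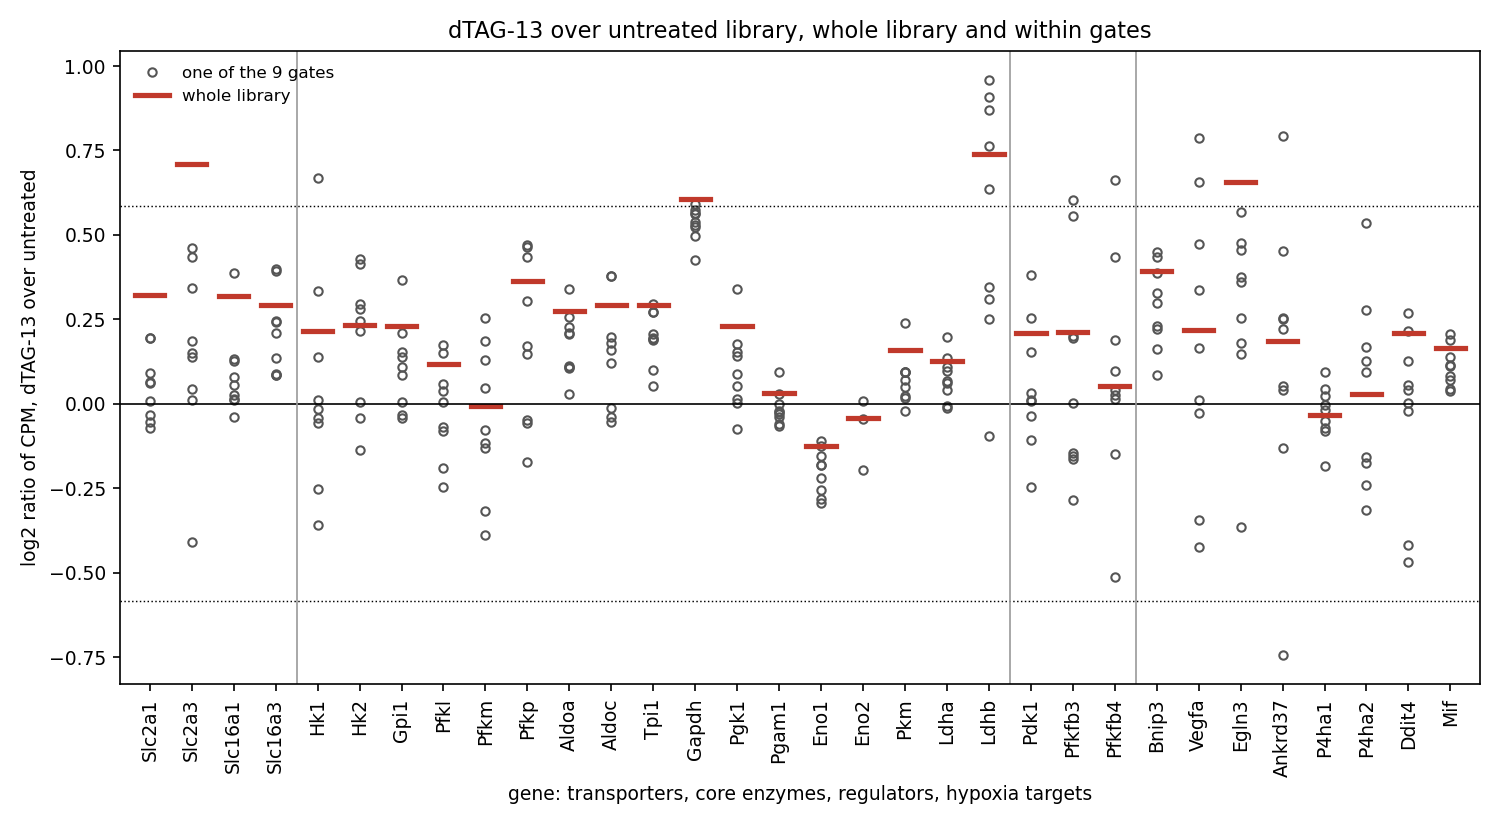
The log2 ratio of dTAG-13 over untreated CPM for each of the 32 genes, over whole libraries (red lines) and in each of 9 gates (open circles), with 1.5-fold marked by dotted lines. Gapdh lies above 0 and Eno1 below 0 in all 9 gates, and Ldhb reaches 0.96.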

How the data were processed

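Single-cell 3' RNA was measured in 2 libraries, 1 untreated and 1 dTAG-13. The values deposited by the authors are whole-number UMI counts per gene and barcode with no normalization, made with Cell Ranger 6.1.2 and mm10 per the submitters' processing notes. No source used here says if counting was by strand, and reads of overlapping genes may be shared. The 7276 and 7873 barcodes held 158002807 and 176677276 UMIs. Barcodes with fewer than 1000 genes or over 10% mitochondrial UMIs (630 and 693) were removed. The automatic doublet threshold of scrublet called 1 and 0 barcodes and so did not work, and the highest-scoring barcodes were removed instead, at 0.8% per 1000 barcodes (424 and 496).

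Counts were summed per library and gate and given as CPM. A log2 ratio has a prior of 1 CPM on each side, and its interval is the exact conditional one without the prior, so a low gene's ratio can lie near an end of it. Genes with at least 10 UMIs over both sides were measured, and 1.5-fold was called. With 1 library per group no test was made. The scripts were tested on simulated data. Alternatives were another prior, no UMI filter, TMM (edgeR 4.0.16) and DESeq2 1.42.0 size factors, doublets or all barcodes kept, thinned cells and other gate thresholds. Any of the 32 members may be named; from each other list, up to 4 genes with at least 20 CPM and the largest ratios. The members and lists were chosen with earlier results of these data known. Python 3.11.15, scanpy 1.11.5, scipy 1.17.1 and R 4.3.3 were used.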

Additional observations from a re-analysis of the deposited data

Results flagged for a closer look

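Ankrd37, an ankyrin-repeat gene induced in low oxygen, differed in direction between gates. With dTAG-13 it was at 0.79 on the log2 scale in Zfp42 and at -0.74 in Pim2, a gap of 1.54. It also differed in direction between libraries in T+Tbx6 over Meox1 only, at -0.59 untreated and 0.69 with dTAG-13, a gap of 1.28. Neither difference was tested, and the gene stood under 10 CPM in every gate.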

How the results depend on the processing

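No paired analysis was possible because each group is 1 library. Of 250 values of the list summaries under the alternatives, 210 were close to the main value, 40 moved and 0 reversed. Of 4154 values of single members, 3586 were close, 556 moved and 12 reversed, and of 51 single-member calls at 1.5-fold 20 kept the call in all settings and 31 lost it in at least 1. Where a value moved, the cause was not tested.

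Scaling moved the whole-library median of the glycolytic genes from 0.23 to 0.19 (TMM) and 0.18 (DESeq2). A prior of 5 CPM left 0 hypoxia targets higher over whole libraries and 0 higher in T+Tbx6 over Meox1 only with dTAG-13. Over gates within libraries it left 1 hypoxia pair higher and 0 lower, and against other cells 3 lower.

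In T+Tbx6 over Meox1 only, 8 glycolytic genes were lower untreated with cells thinned to 5000 UMIs. With a gate threshold of 3 UMIs, 2 hypoxia targets were lower untreated. With dTAG-13 the glycolytic median moved from -0.05 to -0.28 (thinned to 5000), -0.27 (gate threshold of 1), -0.17 (gate threshold of 3) and -0.22 (gates on cells thinned to 10000). The number higher was 3 in place of 5 with doublets kept, with no cell filter, thinned, with a gate threshold of 3 and with thinned gates, and 2 with a gate threshold of 1. The number lower was 7 thinned, 5 with a gate threshold of 3 and 8 with thinned gates. Of the hypoxia targets, 0 were higher with a gate threshold of 1 and 2 with thinned gates, and 4 were lower when thinned or with a gate threshold of 3.

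Within gates, lower glycolytic pairs numbered 1 (doublets kept, no cell filter, gate threshold of 1), 8 (thinned), 2 (gate threshold of 3) and 3 (thinned gates). Hypoxia pairs higher numbered 8 (thinned) and 6 (thinned gates), and lower 5 (thinned), 0 (gate threshold of 1) and 4 (thinned gates). Against other cells, hypoxia pairs numbered 3 higher and 3 lower with a gate threshold of 1, and 11 lower when thinned.

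Single members reversed in T+Tbx6 over Meox1 only with dTAG-13. Hk1 went to -0.71 (thinned) and -0.33 (gate threshold of 1), and Pfkm to -0.58 (thinned). With thinned gates Slc2a1 went to -0.11 and Slc2a3 to -1.15. Egln3 went to 1.06 (gate threshold of 3) and 1.41 (thinned gates), and Ankrd37 to -0.068 (gate threshold of 1). Between libraries Ankrd37 in Pim2 reversed to 0.086 and Pfkfb3 in Sfn to -0.0076 with a gate threshold of 1, and Pfkfb4 in Sfn to -0.52 (thinned) and -0.086 (gate threshold of 1). The dTAG-13 T+Tbx6 gate held 47 cells with a median of 23063 UMIs.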

Other observations

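Other genes of sugar metabolism varied along the mesoderm gates. Eno3, the muscle enolase, was at 11.3 CPM in T+Tbx6 and 39.0 CPM in Meox1 only untreated, and at 14.4 and 41.8 CPM with dTAG-13. Bpgm, which makes 2,3-bisphosphoglycerate, ran the other way, at 51.1 and 22.9 CPM untreated and at 68.8 and 21.8 CPM with dTAG-13. Pgam2, the muscle phosphoglycerate mutase, was at 9.93 CPM in the untreated and 59.9 CPM in the dTAG-13 T only gate, a log2 ratio of 2.48 (2.30 to 2.90). Mycn, a MYC-family factor, was at 43.7 CPM in T+Tbx6 and 26.5 CPM in Meox1 only untreated. With dTAG-13 Mycn did not pass 1.5-fold between these gates, and it was at 16.1 CPM in T+Sox2 and 31.6 CPM in Meox1 only. The gluconeogenesis list had 3 of 5 measured genes at least 1.5-fold higher in Zfp42 in both libraries, and 0 lower, where 9.08% of all genes were higher and 12.4% lower.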
